A study of Mus musculus with 21 samples.

Results

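The ligands of the vascular endothelial growth factor (VEGF) family, their receptors and adrenomedullin were followed in B16-F10, a pigmented mouse melanoma line of C57BL/6J origin. The 8 genes Vegfa, Vegfb, Vegfc, Pgf, Adm, Flt1, Kdr and Nrp1 were taken by name from the annotation of the Murine Genome U74Av2 array, which left 8251 genes with at least 1 probe set of a single gene. They were represented by 10 of the 10833 single-gene probe sets: Flt1 and Nrp1 had 2 each and the other 6 genes had 1 each. All 10 were kept and tested, and no filter on low values was applied. Under hypoxia Vegfa rose by 5.72-fold, Adm by 6.10-fold and Pgf by 1.50-fold, whereas Vegfb, Vegfc and Nrp1 fell. With cobalt chloride (CoCl2) Vegfa rose by 5.62-fold and Adm by 2.23-fold, and Vegfb, Vegfc and Nrp1 fell further than under hypoxia. No probe set of Flt1 or Kdr passed the test under either agent.

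RNA was measured on 21 arrays that form 9 groups, and every group is the same line grown in the same medium. A sealed Billups-Rothenberg chamber gave 3 arrays at 1% oxygen for 24 h, set against 2 controls at 21% oxygen. An oxygen flow-regulated incubator gave 3 arrays at 1% oxygen for 24 h and 2 controls at 21% oxygen in experiment 1, and the same numbers in experiment 2. Experiment 3 held 2 controls at 21% oxygen, 2 arrays after 24 h with 100 µM CoCl2 and 2 after 24 h with 200 µM. The labels do not give the culture time of the controls, and the chamber controls were assigned because their titles carry no experiment number. The hypoxia device was the same within a set and CoCl2 was used only in experiment 3, so device and set, and agent and set, cannot be told apart. The labels call the arrays of a group biological replicas without stating that each came from a separate culture, so each p-value rests on a spread among arrays that may be technical. The model is 1 tumour cell line grown alone, without endothelium.

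VEGF ligands are secreted proteins that bind receptor tyrosine kinases on endothelial cells and drive the growth and leakiness of vessels. Vegfa acts through Kdr, the main signalling receptor of blood vessel endothelium, and Flt1 binds Vegfa, Vegfb and Pgf and can act as a trap for them. Nrp1 is a co-receptor that strengthens the binding of Vegfa to Kdr, and Vegfc acts mainly on lymphatic vessels. Adm encodes adrenomedullin, a vasodilator peptide that signals through the receptor Calcrl paired with Ramp2 or Ramp3. Vegfa and Adm are textbook targets of the hypoxia-inducible factors, which oxygen-dependent prolyl hydroxylases such as Egln1 mark for degradation, and cobalt ions stabilise those factors at normal oxygen.

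The core of the element bound by hypoxia-inducible factors reads ACGTG or GCGTG, and it was searched on both strands in the 250 bases before each annotated start of the 8 genes, all of which were matched in the RefSeq promoter table (GRCm38.p6). The windows of the genes with the largest rises, Adm and Vegfa, are shown, one with matches and one without, beside that of Vegfb, which holds matches and fell. Capitals mark a match on either strand, and a match on the reverse strand reads CACGT or CACGC. The Adm window lies at chr7:110627407-110627656 on the plus strand, the Vegfa window at chr17:46032378-46032627 on the minus strand and the Vegfb window at chr19:6987652-6987901 on the minus strand.
Adm: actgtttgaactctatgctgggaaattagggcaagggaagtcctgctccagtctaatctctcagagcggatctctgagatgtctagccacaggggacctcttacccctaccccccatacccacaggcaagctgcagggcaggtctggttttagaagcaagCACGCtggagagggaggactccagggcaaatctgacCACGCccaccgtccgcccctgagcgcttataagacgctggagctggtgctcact
Vegfa: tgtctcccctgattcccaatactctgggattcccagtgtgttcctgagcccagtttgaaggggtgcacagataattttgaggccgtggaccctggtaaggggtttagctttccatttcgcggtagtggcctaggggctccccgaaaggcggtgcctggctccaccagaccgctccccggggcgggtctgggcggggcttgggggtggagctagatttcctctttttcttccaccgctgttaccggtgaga
Vegfb: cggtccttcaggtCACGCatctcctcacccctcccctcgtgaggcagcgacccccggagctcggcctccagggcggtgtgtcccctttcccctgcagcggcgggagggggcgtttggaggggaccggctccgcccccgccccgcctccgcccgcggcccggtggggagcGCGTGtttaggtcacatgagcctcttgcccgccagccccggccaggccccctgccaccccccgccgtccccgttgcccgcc
The Adm window held 2 matches, at bases -90 to -86 and -54 to -50 before the start, both on the reverse strand. The Vegfb window also held 2, at -237 to -233 on the reverse strand and -81 to -77 on the forward strand. The Vegfa window held 0 matches, which says only that these letters are not in these bases, and the window of the second annotated start of Vegfa, inside the gene, held 2. Kdr held 2 matches, Flt1 and Nrp1 held 1 each, Vegfc held 0, and Pgf held 1 at its first annotated start and 0 at the second. Of 32851 promoters in the table, 38.6% held at least 1 match in the same length and 16.7% held at least 2. A match describes the letters of a window and is not a measured binding site.

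The values are log2 RMA values, so that 1 unit is a 2-fold difference, and a value is compared only with values of the same probe set. Array medians lay between 5.44 and 5.53, and the correlation over all probe sets within a group was 0.980 to 0.998 in 15 pairs of arrays. The medians of 9 melanocyte markers over the arrays ran from 2.47 (Ednrb) to 12.3 (Pmel), and those of 8 endothelial markers from 2.50 (Tek) to 6.17 (Pecam1). Values of different probe sets are not on one scale and were not compared, and without detection calls the presence of a transcript was not determined. The mean over 9 melanocyte markers ran from 7.83 to 8.12 on the controls and hypoxia arrays of the hypoxia sets together and from 7.97 to 8.11 in the controls of experiment 3, but from 6.81 to 6.89 at 100 µM CoCl2 and from 5.80 to 5.94 at 200 µM. In experiment 1 it was lower under hypoxia without overlap (8.02 to 8.09 in the controls, 7.83 to 7.98 under hypoxia). The melanocyte means overlapped in the chamber set and in experiment 2. The mean over 9 leukocyte markers ran from 4.46 to 4.71 on the 6 controls and from 4.61 to 4.96 on the 9 arrays of the hypoxia sets, and it was higher under hypoxia without overlap in the chamber set (4.46 on both controls, 4.69 to 4.82 under hypoxia) and in experiment 2 (4.53 to 4.58 against 4.61 to 4.70), whereas experiment 1 overlapped. In experiment 3 it ran from 4.48 to 4.53 in the controls, from 4.95 to 5.05 at 100 µM and from 5.18 to 5.23 at 200 µM, and Cd68 among them ran from 4.46 to 9.24 over all arrays. The mean over 8 endothelial markers was also higher in the chamber set (4.04 on both controls, 4.14 to 4.24 under hypoxia). It overlapped in experiment 2 and was lower under hypoxia in experiment 1 (4.24 to 4.26 against 4.0 to 4.15). In experiment 3 it was 4.03 to 4.04 in the controls, 4.18 to 4.51 at 100 µM and 4.13 to 4.20 at 200 µM. The mean over 10 fibroblast markers was higher in the chamber set (4.63 to 4.68 against 4.82 to 4.86) and overlapped in experiments 1 and 2. The fibroblast mean in experiment 3 was 4.76 to 4.82 in the controls, 4.82 to 4.98 at 100 µM and 4.85 to 5.06 at 200 µM. In bulk RNA a change in the share of cells and a change in RNA per cell cannot be told apart. The 3′ minus 5′ difference of the Actb control probe sets, a measure of RNA quality, was 0.15 to 0.50 on the 15 arrays of the hypoxia sets and 0.50 to 2.36 on the 6 of experiment 3. The part of these shifts in the results was not tested, apart from a fit with the Actb difference as a covariate, given where it changed a result.

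Each treated group was compared with the controls of its own set in 1 linear model (limma) over all 21 arrays, a difference passed at an adjusted p under 0.05 over all 10833 probe sets, and ± marks the model's standard error. For the mean of the 3 hypoxia sets, 3 of the 10 probe sets rose, where 11.2% of all probe sets did, and 4 fell, where 16.8% did. Within single sets the counts were 3 higher and 3 lower in the chamber (background 6.56% and 12.5%), in experiment 1 (6.76% and 9.18%) and in experiment 2 (6.42% and 6.58%). The chamber count of 6 became 3 without control 1 and 2 without control 2, and that of experiment 2 became 3 without hypoxia array 2. At 100 µM CoCl2, 3 rose and 4 fell, where 16.3% and 18.0% of all probe sets did, and at 200 µM again 3 rose and 4 fell, where 18.2% and 19.7% did. The genes that rose were Vegfa, Pgf and Adm in every treated group. The median difference of the 10 probe sets was -0.066 for hypoxia beside 0.014 for all probe sets.

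**Figure D1:**
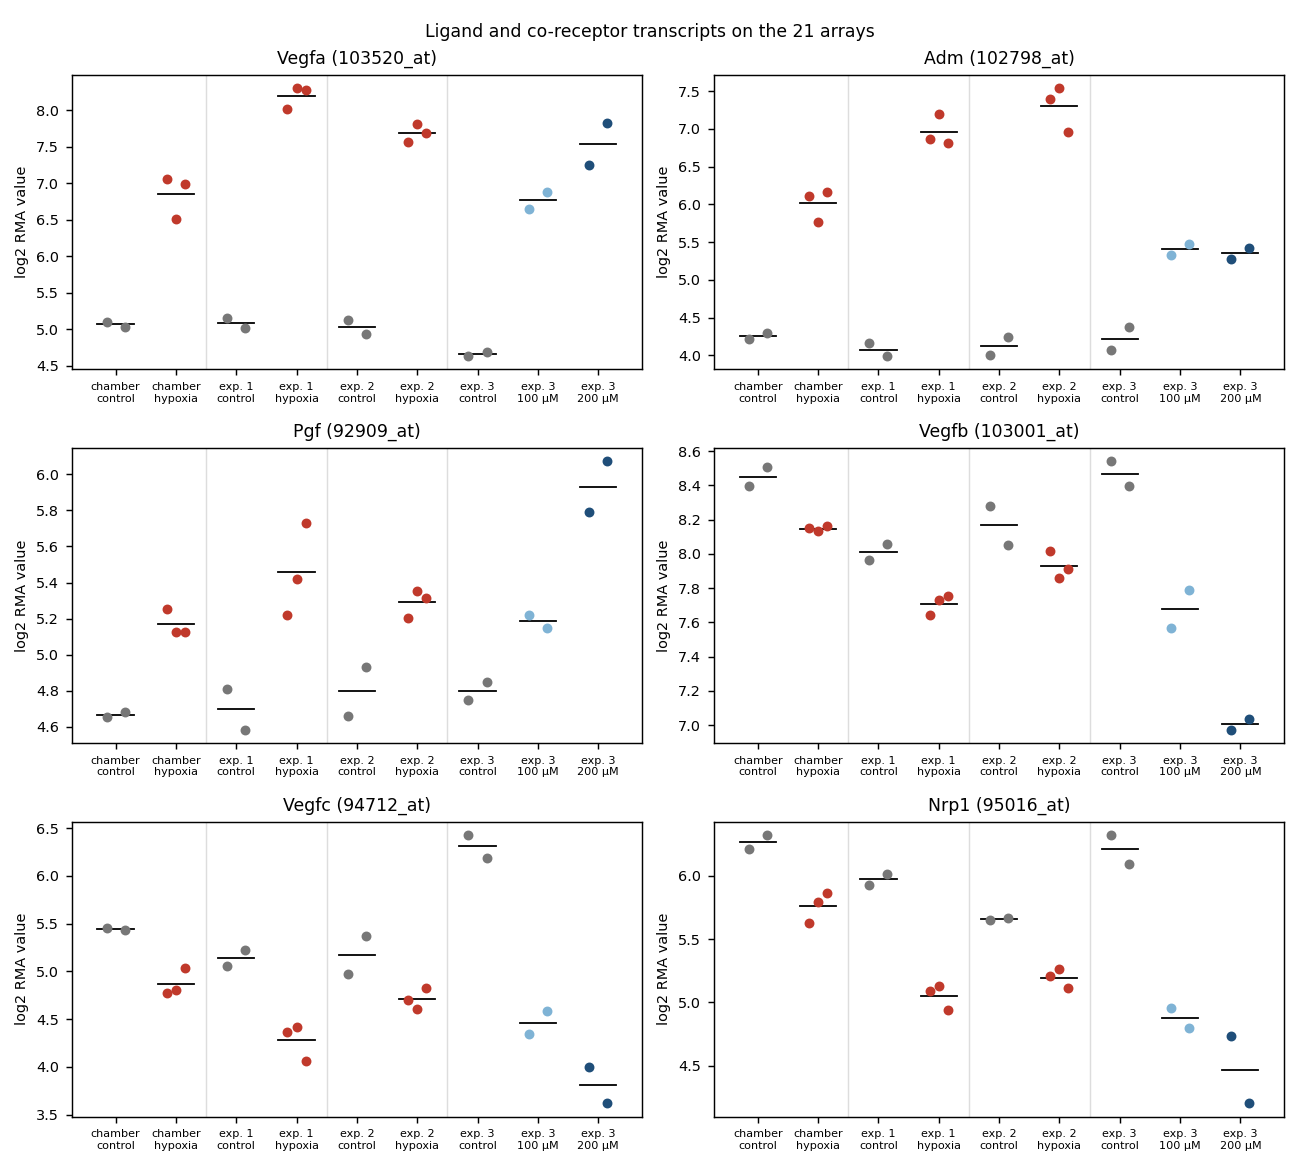
Log2 RMA value (vertical axis) of 6 probe sets on each of the 21 arrays by group (horizontal axis), with points for arrays and bars for group means; grey marks controls, red hypoxia, light blue 100 µM and dark blue 200 µM CoCl2, and each panel has its own scale. Vegfa, Adm and Pgf lay above their own controls on every treated array, and Vegfb, Vegfc and Nrp1 (95016_at) below them.

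Among the ligands that rose, Vegfa had control values of 5.10 and 5.04 in the chamber set, 5.16 and 5.02 in experiment 1, and 5.13 and 4.93 in experiment 2. Its hypoxia values were 7.06, 6.51 and 6.99 in the chamber, 8.01, 8.30 and 8.28 in experiment 1, and 7.57, 7.81 and 7.69 in experiment 2. All 9 hypoxia arrays thus lay far above the 6 controls, and the incubator arrays lay above the chamber arrays. The mean rise was 2.52 ± 0.09 log2 units, or 5.72-fold (adjusted p = 2.02e-14). It was 1.78 ± 0.16 in the chamber, 3.11 ± 0.16 in experiment 1 and 2.66 ± 0.16 in experiment 2, which correspond to 3.44-fold, 8.62-fold and 6.32-fold. In experiment 3 the controls were at 4.63 and 4.69, below the other 6 controls, the 100 µM arrays at 6.65 and 6.89, and the 200 µM arrays at 7.26 and 7.82. Vegfa therefore rose by 2.11 ± 0.18 at 100 µM (4.30-fold, adjusted p = 1.3e-08) and by 2.88 ± 0.18 at 200 µM (7.35-fold, adjusted p = 6.88e-11). In the order of group means, 100 µM CoCl2 overlapped with chamber hypoxia and 200 µM with experiment 2, and experiment 1 stood alone at the top. The rise ranked 12th from the top among 8251 genes for hypoxia and 22nd for CoCl2, as a description.

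Pgf, which encodes placental growth factor and binds Flt1, rose less. Its controls were at 4.65 and 4.68 in the chamber set, 4.81 and 4.58 in experiment 1, and 4.66 and 4.93 in experiment 2, and the hypoxia arrays were at 5.26, 5.13 and 5.13, at 5.22, 5.42 and 5.73, and at 5.20, 5.36 and 5.32. The lowest hypoxia array was above the highest control. The mean rise was 0.58 ± 0.08, or 1.50-fold (adjusted p = 4.18e-06), with 0.50 ± 0.13 in the chamber, 0.76 ± 0.13 in experiment 1 and 0.49 ± 0.13 in experiment 2. In experiment 3 the controls were at 4.75 and 4.85, the 100 µM arrays at 5.22 and 5.15, and the 200 µM arrays at 5.79 and 6.07, which were the highest values of Pgf in the series. The rise was 0.39 ± 0.15 at 100 µM (adjusted p = 0.0464) and 1.13 ± 0.15 at 200 µM (2.19-fold, adjusted p = 2.65e-06). The call at 100 µM was lost without any 1 of the 4 arrays it compares (adjusted p 0.055 to 0.212). The chamber call was lost without either of its controls (0.0871 and 0.0755), and that of experiment 2 without control 1 (0.281) or hypoxia array 2 (0.0586).

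Vegfb, a ligand of Flt1 with little activity on vessel sprouting, fell. The controls were at 8.39 and 8.51 in the chamber set, 7.97 and 8.06 in experiment 1, and 8.28 and 8.05 in experiment 2, and the hypoxia arrays were at 8.15, 8.13 and 8.16, at 7.64, 7.73 and 7.75, and at 8.02, 7.86 and 7.91. Every hypoxia array lay below both controls of its own set, but the sets differed in level, so that the chamber hypoxia arrays were above the controls of experiment 1. The mean fall was small, -0.28 ± 0.06 (adjusted p = 0.000891). Within sets the difference passed in the chamber (-0.30 ± 0.10, adjusted p = 0.0444), and that call was lost without any 1 of its 5 arrays (0.0804 to 0.314), with quantile normalisation (-0.18, 0.226), with the replicate block (0.154) and with all 4 control groups as the reference (-0.13, 0.266). Experiment 1 had the same difference, -0.30 ± 0.10, just outside the threshold (adjusted p = 0.0504), and it passed under 7 of 15 alternatives, with -0.57 against all 4 control groups. Experiment 2 had -0.24 ± 0.10 (adjusted p = 0.167). With CoCl2 the values went from 8.54 and 8.40 to 7.57 and 7.79 at 100 µM and to 6.97 and 7.04 at 200 µM, the lowest of the series. These were falls of -0.79 ± 0.11 (adjusted p = 1.56e-05) and -1.46 ± 0.11 (adjusted p = 1.72e-09), so at 200 µM the signal was 2.76-fold lower.

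Vegfc, the lymphatic growth factor of the family, fell in every treated group. Its controls were at 5.45 and 5.44 in the chamber set, 5.06 and 5.23 in experiment 1, and 4.98 and 5.37 in experiment 2, against hypoxia values of 4.77, 4.80 and 5.03, of 4.37, 4.42 and 4.06, and of 4.69, 4.61 and 4.82. Each hypoxia array was below both controls of its set. The mean fall was -0.63 ± 0.09, or 1.55-fold lower (adjusted p = 5.54e-06), and -0.57 ± 0.15, -0.86 ± 0.15 and -0.47 ± 0.15 in the chamber, experiment 1 and experiment 2. The chamber call was lost without either control (adjusted p 0.0708 and 0.0684), and that of experiment 2 (0.0409) without control 2 (difference -0.27, 0.423) or hypoxia array 1 or 2 (0.0968 and 0.142). The controls of experiment 3 were at 6.43 and 6.19, higher than the other 6 controls, and the values went to 4.34 and 4.58 at 100 µM and to 4.0 and 3.62 at 200 µM. The falls of -1.85 ± 0.16 (3.60-fold lower, adjusted p = 1.92e-08) and -2.50 ± 0.16 (5.65-fold lower, adjusted p = 1.18e-10) were the largest falls of the 10 probe sets at each dose. In level, however, the 4 CoCl2 arrays, at 3.62 to 4.58, overlapped with the 9 hypoxia arrays, at 4.06 to 5.03. With all 4 control groups as the common reference, an alternative chosen after the data were seen, the fall was -1.06 at 100 µM and -1.71 at 200 µM and passed at both.

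Adm showed low, even controls: 4.22 and 4.29 in the chamber set, 4.16 and 3.99 in experiment 1, 4.0 and 4.25 in experiment 2, and 4.07 and 4.38 in experiment 3. Under hypoxia it reached 6.12, 5.77 and 6.16 in the chamber, 6.86, 7.20 and 6.82 in experiment 1, and 7.39, 7.54 and 6.97 in experiment 2. The order of the sets differed from that of Vegfa, with experiment 2 at the top, although the arrays of experiments 1 and 2 overlapped. The mean rise was 2.61 ± 0.09, or 6.10-fold (adjusted p = 1.05e-14), with 1.76 ± 0.16 in the chamber (3.38-fold), 2.89 ± 0.16 in experiment 1 (7.39-fold) and 3.18 ± 0.16 in experiment 2 (9.06-fold). With CoCl2 the values were 5.33 and 5.48 at 100 µM and 5.28 and 5.42 at 200 µM, so all 4 arrays lay between the controls and the lowest hypoxia array. Adm rose by 1.18 ± 0.18 at 100 µM (2.27-fold, adjusted p = 2.98e-05) and by 1.13 ± 0.18 at 200 µM (2.19-fold, adjusted p = 3.29e-05). Its rise ranked 11th from the top among 8251 genes for hypoxia and 109th for CoCl2, as a description.

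Of the receptors, Nrp1 fell. On probe set 95016_at the controls were at 6.21 and 6.32 in the chamber set, 5.93 and 6.02 in experiment 1, and 5.65 and 5.67 in experiment 2, and the hypoxia arrays were at 5.63, 5.80 and 5.87, at 5.09, 5.13 and 4.94, and at 5.21, 5.27 and 5.11. All hypoxia arrays were below both controls of their set. The fall was -0.63 ± 0.08 for the mean (1.55-fold lower, adjusted p = 1.2e-06), -0.51 ± 0.13 in the chamber, -0.92 ± 0.13 in experiment 1 and -0.47 ± 0.13 in experiment 2. With CoCl2 it went from 6.32 and 6.09 to 4.96 and 4.79 at 100 µM and to 4.73 and 4.20 at 200 µM, falls of -1.33 ± 0.14 (adjusted p = 3.86e-07) and -1.74 ± 0.14 (3.34-fold lower, adjusted p = 4.63e-09). The dimmer probe set 92773_at moved the same way, by -0.39 ± 0.07 for the hypoxia mean (adjusted p = 0.000232), -0.98 ± 0.14 at 100 µM and -1.22 ± 0.14 at 200 µM. Its values ran from 3.64 to 4.33 on the 8 control arrays, from 3.14 to 3.74 on the 9 hypoxia arrays and from 2.83 to 3.37 on the 4 CoCl2 arrays. In the chamber set 92773_at did not pass (-0.27 ± 0.12, adjusted p = 0.139). Single-set calls rested on few arrays: for 95016_at the chamber call was lost without control 2 (0.117) and that of experiment 2 without control 1 (0.117), control 2 (0.0996) or hypoxia array 3 (0.073), and for 92773_at that of experiment 1 was lost without control 1 (0.0591) or 2 (0.0979) and that of experiment 2 without control 2 (0.266) or hypoxia array 2 (0.123) or 3 (0.066).

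Kdr ranged only from 4.27 to 4.63 over all 21 arrays, and no treated group passed against its controls. The hypoxia mean difference was 0.08 ± 0.06 (95% confidence interval -0.04 to 0.21, adjusted p = 0.362), and the differences were 0.04 ± 0.11 at 100 µM and 0.05 ± 0.11 at 200 µM CoCl2. The largest was in the chamber, 0.22 ± 0.10 (adjusted p = 0.151), which passed with array weights (0.0207) and with only the arrays of that set (0.0478). Flt1 was as narrow on 98453_at, from 5.48 to 5.83, with a hypoxia mean difference of 0.03 ± 0.06 (interval -0.08 to 0.15, adjusted p = 0.75) and 0.21 ± 0.11 at 200 µM (interval -0.01 to 0.43, adjusted p = 0.125). On 98452_at, which ran from 3.31 to 3.91, the hypoxia mean difference was -0.17 ± 0.07 (interval -0.31 to -0.02, adjusted p = 0.089). This probe set passed when control 2 of experiment 1 (adjusted p = 0.0478) or of experiment 2 (0.0424) was left out, and in experiment 2 (-0.36 ± 0.12, adjusted p = 0.0555) when control 2 was left out (-0.50, adjusted p = 0.0381). The 2 Flt1 probe sets thus had hypoxia differences of opposite sign, neither of which passed. No detection calls were used, so whether these receptor transcripts were above background in B16-F10 cells was not determined.

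**Figure D2:**
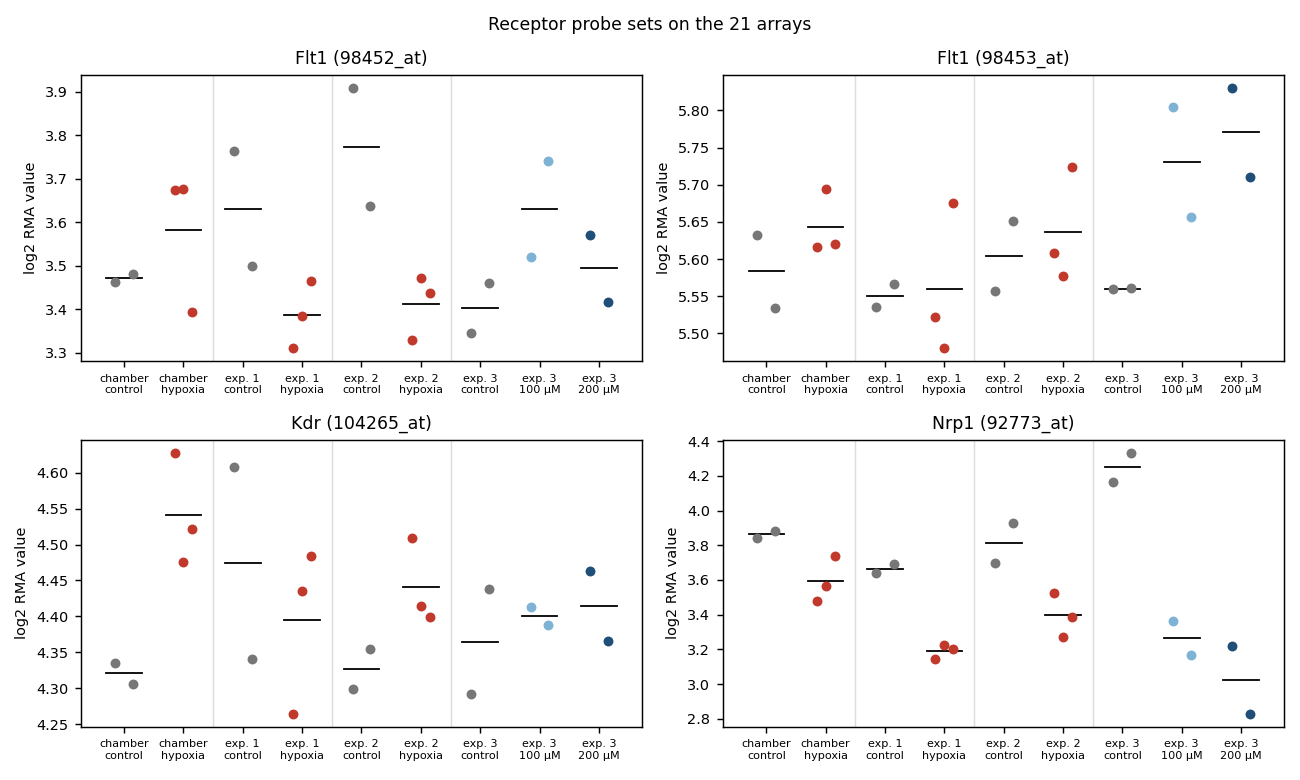
Log2 RMA value (vertical axis) of the probe sets of Flt1, Kdr and Nrp1 (92773_at) on the 21 arrays by group (horizontal axis), with points for arrays and bars for group means; each panel has its own, narrow scale. Kdr stays between 4.27 and 4.63 on all arrays, whereas Nrp1 (92773_at) is highest in the controls of experiment 3 and lowest at 200 µM CoCl2.

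The size of the hypoxia response was compared between the chamber set and the mean of the incubator experiments. The response was smaller in the chamber for 2 of the 10 probe sets, where 1.20% of all probe sets differed in either direction: Vegfa by -1.10 ± 0.20 (adjusted p = 0.00928) and Adm by -1.27 ± 0.20 (adjusted p = 0.0057). The chamber arrays of both genes lay below all 6 incubator arrays, and the 6 controls of these sets spanned only 4.93 to 5.16 for Vegfa and 3.99 to 4.29 for Adm. For the other 8 probe sets the difference did not pass, with intervals of -0.47 to 0.22 for Pgf, -0.29 to 0.47 for Vegfc and -0.15 to 0.52 for Nrp1 (95016_at). The Vegfa call was lost without chamber control 1 (-1.07, adjusted p = 0.0924) or control 2 (-1.13, adjusted p = 0.108), and the Adm call without control 2 (-1.24, adjusted p = 0.0715), so the count became 1 without control 1 and 0 without control 2. Between experiments 1 and 2, 0 of the 10 probe sets differed, where 0.203% of all did, and 1 was under 0.05 before adjustment in limma, which was Nrp1 (95016_at, -0.45 ± 0.19). Vegfa differed by 0.45 ± 0.23 (interval -0.03 to 0.93) and Adm by -0.29 ± 0.23 (interval -0.77 to 0.19), with opposite signs.

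Between 100 µM and 200 µM CoCl2, 4 of the 10 probe sets differed, where 14.4% of all probe sets did in either direction. The Actb 3′ minus 5′ difference was 2.36 and 2.16 on the 100 µM arrays and 1.47 and 0.50 on the 200 µM arrays. Dose and this measure of RNA quality thus cannot be told apart. Vegfa was higher at the higher dose by 0.77 ± 0.18 (1.71-fold, adjusted p = 0.00558) and Pgf by 0.74 ± 0.15 (1.68-fold, adjusted p = 0.00157), while Vegfb differed by -0.67 ± 0.11 (adjusted p = 0.000431) and Vegfc by -0.65 ± 0.16 (adjusted p = 0.00918). In each of these 4 the arrays of the doses did not overlap. Adm did not pass, at -0.05 ± 0.18 (interval -0.42 to 0.32, adjusted p = 0.902), and its arrays at the 2 doses overlapped. Nrp1 differed by -0.41 ± 0.14 on 95016_at (adjusted p = 0.0628), which passed without 100 µM array 2 (0.0453) or 200 µM array 1 (-0.67, 0.00201), and by -0.24 ± 0.14 on 92773_at, which passed without 200 µM array 1 (-0.43, 0.0475). The dose calls depended on the fit: the count was 0 with array weights, 0 with only the 6 arrays of experiment 3, and 0 with the Actb 3′ minus 5′ difference as a covariate, under which Vegfa stood at -0.070 (adjusted p = 0.946) and Nrp1, not passing, changed sign to 0.21 on 95016_at and 0.31 on 92773_at. The count was 2 without 200 µM array 2, where Vegfa (0.49, adjusted p = 0.155) and Vegfc (-0.46, 0.17) were lost, and Vegfc was also lost without 100 µM array 2 (-0.53, 0.0536).

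**Figure D3:**
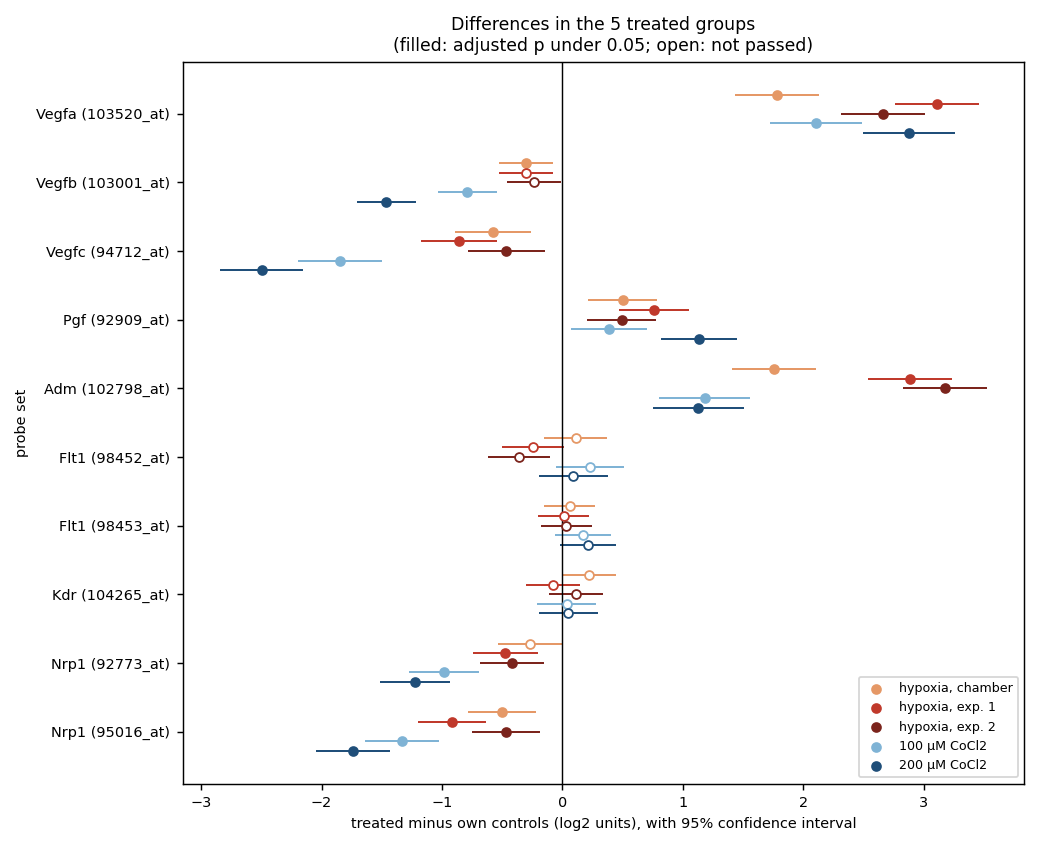
Difference between each treated group and its own controls in log2 units (horizontal axis) for the 10 probe sets (vertical axis), with 95% confidence intervals; filled points passed at an adjusted p under 0.05. Vegfa, Adm and Pgf lie to the right in all 5 groups, Vegfb, Vegfc and Nrp1 lie to the left, and no point of Flt1 or Kdr is filled, the furthest being Flt1 (98452_at) at -0.36 in experiment 2.

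The mean response to CoCl2 was then set against the mean response to hypoxia, and 5 of the 10 probe sets differed, where 21.8% of all probe sets did in either direction. Adm rose less with CoCl2, by -1.45 ± 0.18 log2 units (adjusted p = 4.5e-06). Vegfc (-1.54 ± 0.16, adjusted p = 5.6e-07), Vegfb (-0.85 ± 0.11, adjusted p = 1.35e-05) and Nrp1 (-0.91 ± 0.15 on 95016_at and -0.72 ± 0.14 on 92773_at, adjusted p = 0.000101 and 0.000659) fell further with CoCl2. Vegfa differed by -0.03 ± 0.18 and Pgf by 0.17 ± 0.15, neither of which passed; the intervals, -0.40 to 0.35 and -0.13 to 0.48, leave room for differences of that size. In level, the CoCl2 arrays of Adm (5.28 to 5.48) did not overlap with its hypoxia arrays (5.77 to 7.54). Controls of experiment 3 were not at the level of the others for Vegfa, Vegfc and Nrp1 (92773_at, 4.16 and 4.33 against 3.64 to 3.93). The CoCl2 arrays of Nrp1 (92773_at), at 2.83 to 3.37, overlapped in level with its hypoxia arrays, at 3.14 to 3.74. With all 4 control groups as the reference Vegfa also passed (-0.43, adjusted p = 0.00277), as did Pgf (0.25, adjusted p = 0.0248). Under that reference Vegfc shrank to -0.48, Nrp1 (92773_at) to -0.25 and Adm stayed at -1.38, all passing.

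The responses of Vegfa and Adm were also set side by side on each treated array. The change of Vegfa from the mean of its own controls, minus that of Adm, ran from -0.73 to 0.44 on the 9 hypoxia arrays, with a median of 0.02. On the 4 CoCl2 arrays it was 0.88 and 0.97 at 100 µM and 1.54 and 1.96 at 200 µM. The hypoxia and CoCl2 arrays did not overlap in this measure, which is a description and shares the 2 controls of experiment 3 among all 4 CoCl2 arrays. Within hypoxia, experiment 2 had the 3 lowest values (-0.73, -0.64 and -0.18), where Adm rose further than Vegfa.

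**Figure D4:**
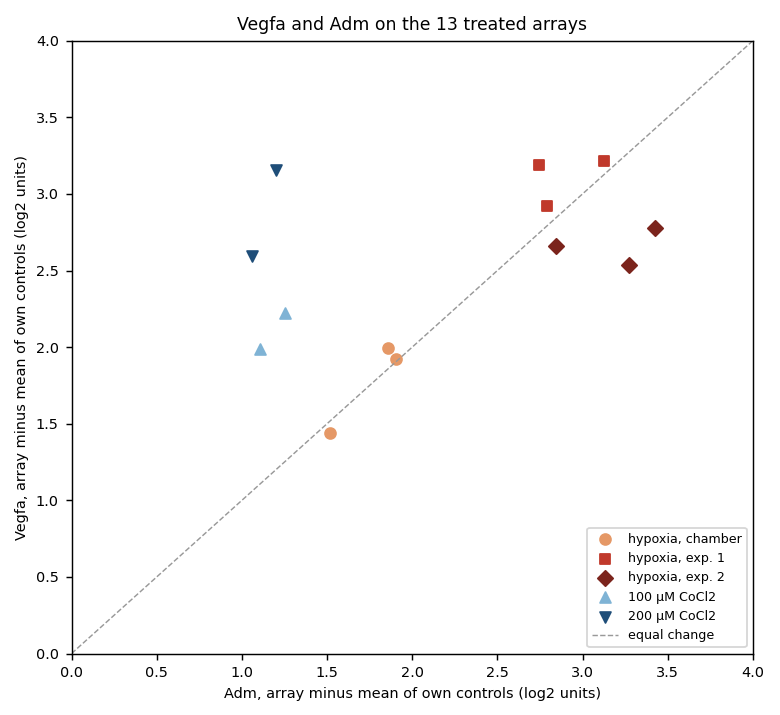
Change of Vegfa (vertical axis) against change of Adm (horizontal axis) on the 13 treated arrays, each as the array minus the mean of its own controls in log2 units; the dashed line marks equal change. The 9 hypoxia arrays lie within -0.73 to 0.44 of the line and the 4 CoCl2 arrays above it, at Adm changes of 1.06 to 1.25 and Vegfa changes of 1.99 to 3.16.

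Likeness to Vegfa and to Adm was measured over the 5 treated-minus-control differences as the root mean square distance from each other gene. The genes nearest to Vegfa were Slc2a1, a glucose transporter (distance 0.36 log2 units), Pfkp, a glycolytic enzyme (0.43), Sap30 (0.54), Tes (0.58) and Kdelr3 (0.59). Slc2a1 had differences of 2.05, 2.77 and 2.31 in the 3 hypoxia sets and of 2.70 and 2.91 at the 2 CoCl2 doses. Those nearest to Adm were F3, the tissue factor that starts coagulation (0.56), Hk2, a hexokinase (0.61), Pfkp (0.64), Bhlhe40 (0.65) and Egln1 (0.69). F3 had differences of 1.85, 2.18 and 2.43 under hypoxia and of 1.09 and 0.41 with CoCl2. Adm itself was at distance 0.92 from Vegfa and ranked 24th of 8250 genes. The differences share the controls of experiment 3 in the 2 CoCl2 groups, so the distances are given as a description.

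The wider pathways were described from 5 gene lists, using for each gene the probe set with the highest mean over the arrays, and counts are read against 11.9% of 8251 genes higher and 18.8% lower for hypoxia and 22.0% higher and 22.7% lower for CoCl2. The VEGF list had 9 measured genes, of which hypoxia raised 2 and lowered 3, with a median of 0.03, and CoCl2 raised 3 and lowered 3, with a median of 0.09. The medians over all genes were 0.01 for hypoxia and 0.12 for CoCl2. The only gene outside the 8 to pass in either mean was Vegfd, a lymphatic ligand, which rose with CoCl2 by 0.38 ± 0.10 (adjusted p = 0.00408) and had 0.08 ± 0.06 for the hypoxia mean (adjusted p = 0.368). Within the hypoxia sets Vegfd rose in the chamber (0.31 ± 0.10, adjusted p = 0.0421) and had -0.03 ± 0.10 in experiment 1 and -0.03 ± 0.10 in experiment 2. Flt4, the receptor of Vegfc and Vegfd, had 0.02 ± 0.08 and 0.09 ± 0.13 on the probe set used, and passed with CoCl2 on the other (0.32, adjusted p = 0.0241).

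The adrenomedullin axis had 10 measured genes, of which hypoxia raised 1, Adm itself, and lowered 4 (median -0.07). The fallen genes were on the receptor side: Ramp2, a partner that makes Calcrl an adrenomedullin receptor (-0.79 ± 0.07, adjusted p = 9.76e-09), Ackr3, a receptor that takes up adrenomedullin (-0.64 ± 0.08, adjusted p = 1.35e-06), Crcp, a coupling protein of the receptor (-0.35 ± 0.09, adjusted p = 0.00335), and Calcrl (-0.19 ± 0.06, adjusted p = 0.0134). Calcrl had a mean of 2.06 over the arrays, whose minima were 1.37 to 1.72, and passed in no single hypoxia set (adjusted p 0.117 to 0.331). Ramp2 passed in each hypoxia set, and Ackr3, with a mean of 3.17, did not pass in experiment 2 (-0.35, adjusted p = 0.104). Crcp passed only in the chamber (adjusted p = 0.0266), with 0.121 in experiment 1 and 0.476 in experiment 2. Most measured genes of this list are on the receptor side. Also on the receptor side, Ramp3 (-0.10, adjusted p = 0.29), Ramp1 (0.09, adjusted p = 0.315) and Calcr (-0.04, adjusted p = 0.692) did not pass for the hypoxia mean. Within sets, Calcr fell in experiment 2 (-0.33, adjusted p = 0.0371) and had 0.13 in the chamber and 0.07 in experiment 1. CoCl2 raised 3 and lowered 2 (median -0.01). Ackr3 (-0.95 ± 0.13, adjusted p = 4.3e-06) and Ramp2 (-0.55 ± 0.11, adjusted p = 0.000518) fell again, whereas Crcp rose by 0.45 ± 0.14 (adjusted p = 0.015) and Ramp1 by 0.31 ± 0.10 (adjusted p = 0.0138). By dose, these 2 rises passed only at 200 µM, for Crcp with 0.78 (adjusted p = 0.000763) and for Ramp1 with 0.37 (0.0123). At 100 µM Crcp had 0.13 (adjusted p = 0.539) and Ramp1 0.25 (0.0803). Calcrl had 0.13 ± 0.09 with CoCl2 (adjusted p = 0.267). Pam, which amidates the peptide, had 0.01 under hypoxia and -0.09 with CoCl2, neither of which passed.

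In the list of VEGF receptor signalling, 29 genes were measured, of which hypoxia raised 5 and lowered 4 (median 0.04) and CoCl2 raised 6 and lowered 5 (median 0.05). Under hypoxia the kinase Map2k1 rose by 0.74 ± 0.07 and Sphk1, which makes sphingosine phosphate, by 0.44 ± 0.08, while the kinases Akt1 (-0.52 ± 0.09), Mapk14 (-0.46 ± 0.11) and Map2k2 (-0.42 ± 0.06) fell. Map2k1 had 0.02 on its other probe set. Map2k1 and Map2k2 passed in each hypoxia set. Sphk1 passed only in the chamber (0.72, adjusted p = 0.00113), with adjusted p of 0.228 in experiment 1 and 0.164 in experiment 2. Akt1 and Mapk14 passed only in experiment 1 (adjusted p = 0.00209 and 0.0383). In the chamber they had adjusted p of 0.0659 and 0.0623, and in experiment 2 of 0.0527 and 0.376. With CoCl2, Mapk14 fell by 1.30 ± 0.18, Akt1 by 0.90 ± 0.14 and Ppp3ca, a calcineurin subunit, by 0.73 ± 0.14, and Map2k1 rose by 0.83 ± 0.11.

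Among 39 measured genes of other angiogenic factors, inhibitors and their receptors, hypoxia raised 5 and lowered 5 (median 0.04). Hmox1, which degrades haem, rose by 0.96 ± 0.08, Sema3b, a ligand of neuropilins, by 0.86 ± 0.09 (0.36 on its other probe set, not passed) and Plaur, the urokinase receptor, by 0.75 ± 0.09. In the chamber alone Plaur did not pass (0.40, adjusted p = 0.0665). Serpinf1, an inhibitor of vessel growth, fell by 0.69 ± 0.07 (0.07 on its other probe set), Angpt2, a ligand of the receptor Tek, by 0.54 ± 0.07, and Eng, a co-receptor for transforming growth factor beta, by 0.49 ± 0.07. CoCl2 raised 11 and lowered 4 (median 0.18). Hmox1 rose by 3.16 ± 0.13, and Angpt2 (-1.31 ± 0.11), Serpinf1 (-1.24 ± 0.11, but 0.45 and passing on its other probe set), Met, the receptor of hepatocyte growth factor (-1.17 ± 0.23), and Eng (-0.87 ± 0.11) fell.

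Of 17 measured regulators of Vegfa and Adm mRNA, hypoxia raised 9 and lowered 2 (median 0.30), and CoCl2 raised 8 and lowered 3 (median 0.32). Egln1, the prolyl hydroxylase, rose by 2.11 ± 0.08 under hypoxia (adjusted p = 2.67e-14) and by 1.37 ± 0.13 with CoCl2. Its rise was 1.81 at 100 µM and 0.93 at 200 µM. Egln2, a related enzyme, fell by 0.63 ± 0.06 under hypoxia. Hif1a, the oxygen-regulated subunit of the factor, did not pass under either agent, at 0.04 under hypoxia (adjusted p = 0.814) and -0.27 with CoCl2 (adjusted p = 0.124). The transcription factor genes Jun and Fos rose under hypoxia by 1.11 ± 0.07 and 2.14 ± 0.17, although Fos had 0.08 on its other probe set. With CoCl2 Jun rose by 1.57 ± 0.11, and Fos had -0.65 ± 0.28 for the mean of both doses (adjusted p = 0.0672). By dose, Fos had -0.07 at 100 µM (adjusted p = 0.887) and fell at 200 µM (-1.23, adjusted p = 0.00487). The other probe set of Fos had 0.10 for the CoCl2 mean (adjusted p = 0.63). Zfp36, whose protein shortens the life of mRNAs with AU-rich elements, Vegfa among its known targets, rose by 0.85 ± 0.13 under hypoxia, and Elavl1, which stabilises such mRNAs, fell by 1.07 ± 0.16 with CoCl2. Zfp36 had 0.39 at 100 µM (adjusted p = 0.213) and 0.79 at 200 µM (adjusted p = 0.0138), and Elavl1 had -0.25 for the hypoxia mean (adjusted p = 0.0572). Within the hypoxia sets Elavl1 fell in the chamber (-0.51, adjusted p = 0.0357) and had -0.04 in experiment 1 and -0.20 in experiment 2. In the chamber Zfp36 did not pass (0.48, adjusted p = 0.139). The related gene Zfp36l1 had 0.30 for the hypoxia mean (adjusted p = 0.00293), but -0.62 at 100 µM (adjusted p = 0.00166) and -0.87 at 200 µM (adjusted p = 3.64e-05). Its rise passed in the chamber (0.46) and experiment 2 (0.52), whereas experiment 1 had -0.07 (adjusted p = 0.796). Together the 5 lists held 104 different measured genes, of which 40 changed under hypoxia and 48 with CoCl2. Of all 8251 genes, 11.9% rose and 18.8% fell under hypoxia, and 22.0% rose and 22.7% fell with CoCl2. The CoCl2 count of the lists was thus near the share of all genes. The CoCl2 count was 30 with only the arrays of experiment 3, and the share of all genes under that fit is not given here.

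**Figure D5:**
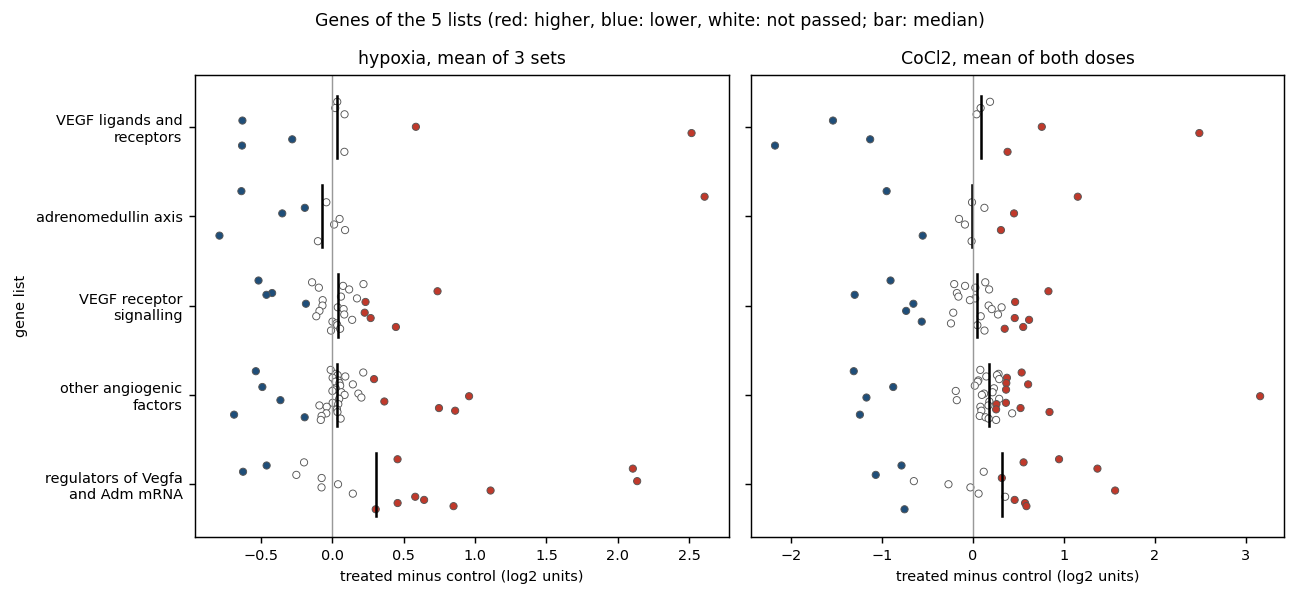
Difference from controls in log2 units (horizontal axis) of each measured gene of the 5 lists (vertical axis; the height within a list only spreads the points) for the hypoxia mean (left) and the CoCl2 mean (right), with red for genes that rose, blue for genes that fell, white for those that did not pass and a bar at each list's median. Vegfa, Adm, Fos and Egln1 are the 4 genes above 2 log2 units under hypoxia, whereas with CoCl2 Hmox1 and Vegfa lie furthest to the right.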

How the data were processed

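RNA of B16-F10 cells in 9 label groups was measured on 21 Affymetrix U74Av2 arrays. The authors deposited RMA values on the log2 scale, and GCOS 1.2 and RMA are the tools named in the submitters' processing notes. Not given in the sources used here were the RMA version, the probe definition and whether all arrays were run together. No rescaling was applied.

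Of 12488 probe sets, 66 were Affymetrix controls, 396 were set aside for matching several genes, and 10833 of a single gene remained (8251 genes). Of these, 10817 were matched to a current symbol by Entrez identifier and 16 kept the older one. All 10 probe sets of the 8 genes were described and tested. The members and lists were chosen with earlier results of these data known. From each list the 6 genes with the largest changes were open to naming, and other probe sets of named genes were examined. Likeness was the root mean square distance over 5 differences, and the 5 nearest genes were named.

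A model with 1 mean per group was fitted with limma 3.58.1 in R 4.3.3 (12 residual degrees of freedom, 20.1 after moderation). Each treated group was compared with the controls of its set, the hypoxia mean weights 3 sets equally, and the CoCl2 mean weights both doses equally. All tests are two-sided with Benjamini-Hochberg adjustment over 10833 probe sets, and intervals are 95%. The fit was tested on simulated data. Depth does not apply to arrays; their number limits the precision.

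Same-numbered arrays of a set had residuals that correlated from -0.35 to 0.32 in 12 pairs, of which 2 were above 0.1, so arrays were not paired. Alternatives were median centring, quantile normalisation, leaving out probe sets with a mean under the 40th percentile, 1 probe set a gene (for the lists, the mean of a gene's probe sets), a variance trend, array weights, a replicate block, the Actb 3′ minus 5′ difference as a covariate, only the arrays of the sets compared, each array left out and, added after the data were seen, all 4 control groups as the reference.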

Additional observations from a re-analysis of the deposited data

Results flagged for a closer look

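The response to hypoxia differed between the chamber and the incubator for Vegfa, by -1.10 ± 0.20 log2 units, and for Adm, by -1.27 ± 0.20, in the test of the difference itself in limma. The response to CoCl2 differed from that to hypoxia for Adm, by -1.45 ± 0.18, and for Vegfc, by -1.54 ± 0.16. The same comparison gave -0.85 ± 0.11 for Vegfb, and for Nrp1 -0.91 ± 0.15 on 95016_at and -0.72 ± 0.14 on 92773_at. Device and set, and agent and set, cannot be told apart. No group held the 4 arrays that a check for an outlying array needs.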

How the results depend on the processing

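Of 1870 recomputed values of the 100 single differences of the probe sets, 1775 stayed on their side of the threshold, 61 lost the call, 32 gained one and 2 changed sign with a call on one side. Of the 1775, 54 changed sign without passing before or after, among them Nrp1 between doses with the Actb covariate (0.21 from -0.41 on 95016_at, 0.31 from -0.24 on 92773_at). The 2 were Vegfa between CoCl2 doses with the Actb covariate (-0.070, from 0.77) and Vegfb between chamber and incubator with all 4 control groups as the reference (0.33, from -0.033). With the replicate block, which rests on numbers that do not pair the arrays and leaves 5 residual degrees of freedom, 2 probe sets passed in experiment 2 instead of 6 and 1 instead of 2 between chamber and incubator. With all 4 control groups as the reference, 6 differed between chamber and incubator and 1 between experiments 1 and 2 (Vegfa). Between doses, 0 passed instead of 4 with array weights, with the Actb covariate and with only the arrays of experiment 3. Without probe sets under the 40th percentile, 3 of those left differed between CoCl2 and hypoxia instead of 5. The list count for CoCl2 was 30 instead of 48 with only the arrays of experiment 3. Leaving out each array in turn gave 2 to 5 probe sets in the chamber (3 without control 1, 2 without control 2), 3 to 5 in experiment 2 (3 without hypoxia array 2), 0 to 2 between chamber and incubator and 2 to 6 between doses. It gave 7 to 8 for the hypoxia mean, 5 to 6 in experiment 1, 6 to 7 at 100 µM, 7 at 200 µM, 5 between CoCl2 and hypoxia, and 36 to 40 and 36 to 62 list genes for hypoxia and CoCl2. Median centring and quantile normalisation changed no direction of a called difference. With 2 or 3 arrays a group, differences of about the size of Vegfb under hypoxia lie at the edge of what single sets can call.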
